A study of Homo sapiens with 18 samples.

Results

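Ribosomal RNA (rRNA) is measured here in libraries that were enriched for RNA with a poly-A tail. The 3 members are the rows of the deposited expression files with gene ID 100008587 (RNA5-8SN5, 5.8S rRNA), 100008588 (RNA18SN5, 18S rRNA) and 100008589 (RNA28SN5, 28S rRNA), out of 23604 rows listed in at least 1 library. They were chosen by their gene IDs after their levels in these libraries had been seen, so their own values are given as a description, without a test. All 3 rows were listed in each of the 8 RNA-Seq libraries and passed the filter on low counts, with at least 157 counts in every library. The row of their common precursor, RNA45SN5 (gene ID 100861532, 45S pre-rRNA), holds the sequence of all 3 and is described in the same way.

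The libraries came from MCF10A-ErSrc, a single human breast epithelial line that carries the v-Src oncoprotein fused to the ligand-binding part of the oestrogen receptor, so that tamoxifen switches v-Src on. The non-treated (NT) cells received no tamoxifen, and the tamoxifen-treated (TAM) cells were transformed with it. Both were then given either DMSO (called NT and TAM below) or triptolide (TPL-125nM, called NT+TPL and TAM+TPL) for 4 h, with 2 biological replicates in each of the 4 groups. TPL binds the XPB subunit of TFIIH, a general transcription factor of RNA polymerase II that also takes part in DNA repair. The same series holds 8 ChIP-Seq samples of RNA polymerase II (RNAPII) and 2 inputs.

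In human cells, RNA polymerase I transcribes the rDNA repeats in the nucleolus into a long precursor that holds 18S, 5.8S and 28S rRNA in this order, between spacers. Processing factors and small nucleolar RNAs modify, fold and cut the precursor, and the nuclear RNA exosome trims or degrades the pieces. 18S becomes the RNA of the small ribosomal subunit, and 5.8S and 28S join the large subunit with 5S rRNA, which RNA polymerase III makes elsewhere. Each ribosome holds a single copy of each. None of these RNAs carries an encoded poly-A tail, and oligo(dT) enrichment is meant to remove them. A short poly-A tail is added to some faulty or excess precursors on the way to the exosome.

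The sequences below show what oligo(dT) could meet inside the rows. They were read from the GRCh37 contig GL000220.1, which carries an rDNA repeat, on the plus strand and are written as DNA. The precursor spans bases 105424 to 118780 of the contig (13357 bases), with 18S at 109078 to 110946, 5.8S at 112025 to 112180 and 28S at 113348 to 118417. The 5.8S position came from a match of 5.8S copies in the GENCODE annotation, and the others from their RefSeq distance to it. The lengths of 18S, 28S and the precursor were equal to the deposited ones, while the end of 5.8S was set from its deposited length. Capitals mark the longest run of A in the stretch shown, or the first such run where several are as long.
5.8S, whole, bases 1 to 156: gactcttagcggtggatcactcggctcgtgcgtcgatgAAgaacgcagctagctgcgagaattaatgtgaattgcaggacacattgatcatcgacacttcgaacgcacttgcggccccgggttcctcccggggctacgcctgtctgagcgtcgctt
18S, bases 788 to 833: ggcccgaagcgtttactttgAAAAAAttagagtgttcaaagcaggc
18S, last 50 bases, 1820 to 1869: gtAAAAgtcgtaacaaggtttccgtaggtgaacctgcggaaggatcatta
28S, bases 363 to 406: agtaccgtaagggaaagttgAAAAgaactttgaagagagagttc
28S, last 50 bases, 5021 to 5070: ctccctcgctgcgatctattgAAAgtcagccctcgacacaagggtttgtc

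The 3 rRNAs differed in base content and in their runs of A. The longest run of A had 6 bases in 18S, 4 in 28S and 2 in 5.8S, and the 18S run was also the longest in the whole precursor. A run of AAAAAA occurred in 45.6% of protein-coding transcripts over their first 1869 bases, the length of 18S, in 83.5% over the first 5070 bases, the length of 28S, and in 2.77% over the first 156 bases, with 1 transcript for each gene that is long enough. By this measure 28S, with no such run, is unlike most transcripts of its length, while the single run in 18S and the absence of one in 5.8S are common. On the other strand, which reads as TTTTTT, 28S held a single run and 18S and 5.8S none. The GC content was 56.1% in 18S, 57.1% in 5.8S, 69.4% in 28S and 72.5% in the precursor, of which 6262 bases lie outside the 3 mature rRNAs. The sequences show the letters of this copy of the repeat and nothing about priming or tails in the libraries.

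The depth was similar in all libraries, between 7461309 and 8349448 expected counts, which are the reads of a gene as estimated by RSEM. Libraries with TPL listed between 19584 and 20156 rows with a read and those with DMSO between 18485 and 18566. Markers of the epithelial line were present, and 10 of the 10 genes fixed as such were found. They took 4.01 and 3.70% of the counts in NT against 2.77 and 2.14% in NT+TPL, and 1.92 and 1.99% in TAM against 1.10 and 1.01% in TAM+TPL. This summed share was lower with TPL and lower in TAM than in NT cells, without overlap. It so ran opposite to the rRNA share described next, and its part there was not tested. The sum does not stand for each marker. Between TAM and NT cells, 8 of the 14 marker rows had a log2 difference below 0 and 6 above it, with DMSO as well as with TPL. With TPL against DMSO, 11 were below 0 and 3 above it in NT cells, and 9 and 4 in TAM cells. None of the 13 mitochondrial mRNAs had a row. The replicates of a group differed by more than sampling noise, least in TAM+TPL and most in NT+TPL (chi-square of 9.36 and 30.5 per gene).

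A larger share of the libraries with TPL was assigned to rRNA. The 3 rows together took 0.437 and 0.455% of the counts in NT and 0.590 and 1.02% in NT+TPL. They took 0.612 and 0.563% in TAM and 1.24% in both TAM+TPL libraries. No library with TPL overlapped with the DMSO libraries of its own cells. The mean share was 1.799 times as high in NT+TPL as in NT, with ratios between single libraries from 1.295 to 2.325, and 2.11 times as high in TAM+TPL as in TAM, with ratios from 2.02 to 2.21. RNA-Seq gives shares of the RNA that was sequenced, so more rRNA and less of the other RNA cannot be told apart here.

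**Figure D1:**
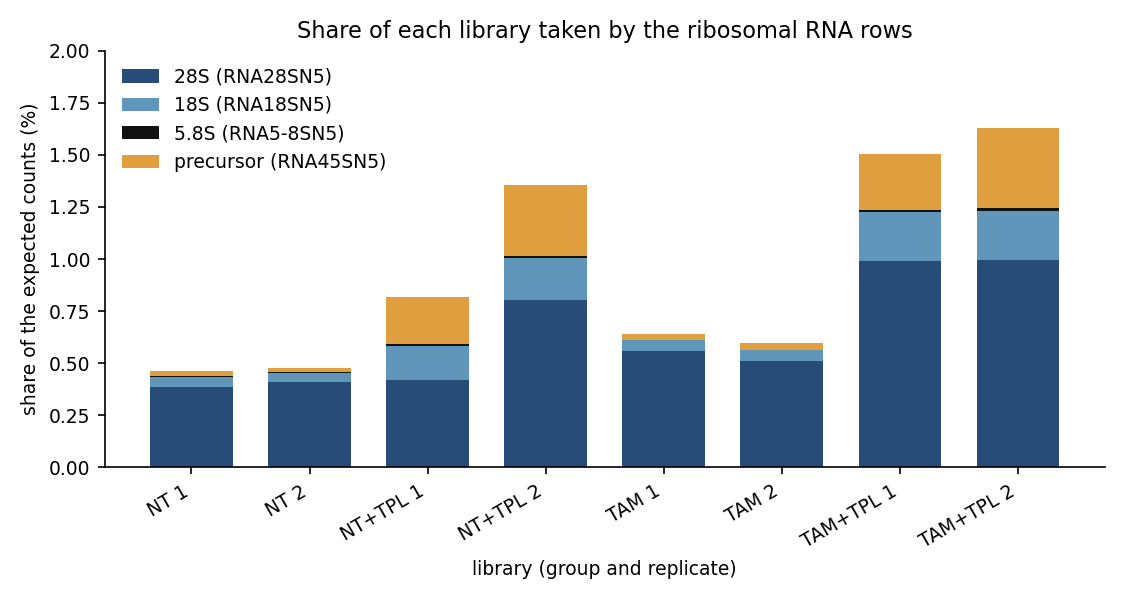
Stacked bars give the share of the expected counts of each library, in percent, assigned to 28S, 18S, 5.8S and the precursor. With the precursor, the bars reach 0.462 to 0.638% with DMSO and 0.818 to 1.63% with TPL, and the precursor part is wider in all libraries with TPL than in any with DMSO.

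28S rRNA, the large RNA of the large subunit, made up most of the counts of the 3 rows and differed least between TPL and DMSO. Its FPKM, the count scaled to the effective length of the row and to the mapped reads of the library, was 750 and 800 in NT against 818 and 1554 in NT+TPL, and 1085 and 992 in TAM against 1927 and 1930 in TAM+TPL. The NT+TPL replicates were apart, with replicate 1 close above NT and replicate 2 well above it. As a share of the library, 28S took 0.421% in NT+TPL replicate 1 (95% Wilson interval 0.417 to 0.426%) and 0.410% in NT replicate 2 (0.406 to 0.415%). On CPM scaled by TMM, as in the fit, the groups overlapped in NT cells, with NT+TPL replicate 1 at 0.991 times the higher NT library. The intervals cover counting error only. The log2 fold change with TPL in the common edgeR fit was 0.62 (SE 0.29) in NT cells and 0.84 (SE 0.29) in TAM cells, while the median over all 16948 rows tested was 0.09 and 0.05.

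18S rRNA, the RNA of the small subunit, was several times higher with TPL in both kinds of cells. Its FPKM was 261 and 230 in NT against 858 and 1077 in NT+TPL, and 278 and 273 in TAM against 1244 and 1280 in TAM+TPL. All libraries with TPL lay above all those with DMSO. The log2 fold change was 1.98 (SE 0.17) in NT cells and 2.15 (SE 0.17) in TAM cells, and 91.5% and 92.3% of the rows tested had a smaller value.

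5.8S rRNA, which pairs with 28S in the large subunit, moved almost as 18S did. Its FPKM was 162 and 159 in NT against 632 and 882 in NT+TPL, and 184 and 158 in TAM against 922 and 912 in TAM+TPL, again without overlap between TPL and DMSO. These values rest on 157 to 188 reads in a library with DMSO and 593 to 911 with TPL, because the row is short. The deposited FPKM also divided the count by an effective length of about 120 bases instead of 156, so that the level of 5.8S against the longer rows depends on this correction. The log2 fold change was 2.24 (SE 0.21) in NT cells and 2.38 (SE 0.21) in TAM cells.

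The precursor row showed the widest gap between TPL and DMSO of the 4 rRNA rows. RNA45SN5 had an FPKM of 18.6 and 15.8 in NT against 168 and 249 in NT+TPL, and 19.5 and 24.8 in TAM against 195 and 282 in TAM+TPL. In the order of all rows by FPKM it stood between place 2688 and place 4144 with DMSO and between place 230 and place 400 with TPL. The ratio of the group means was 12.1 in NT cells (9.0 to 15.8 between single libraries) and 10.8 in TAM cells (7.89 to 14.4). The log2 fold change was 3.60 (SE 0.30) and 3.38 (SE 0.30), with 96.2% and 95.9% of the rows tested below it. For scale, 16% of all rows tested had a log2 fold change of 1.2 or more in NT cells and 15.7% in TAM cells, by size alone. The 18S, 5.8S and precursor rows were past this size in both kinds of cells, and 28S in neither. Nothing is read from this count, because the rows were chosen on these values.

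**Figure D2:**
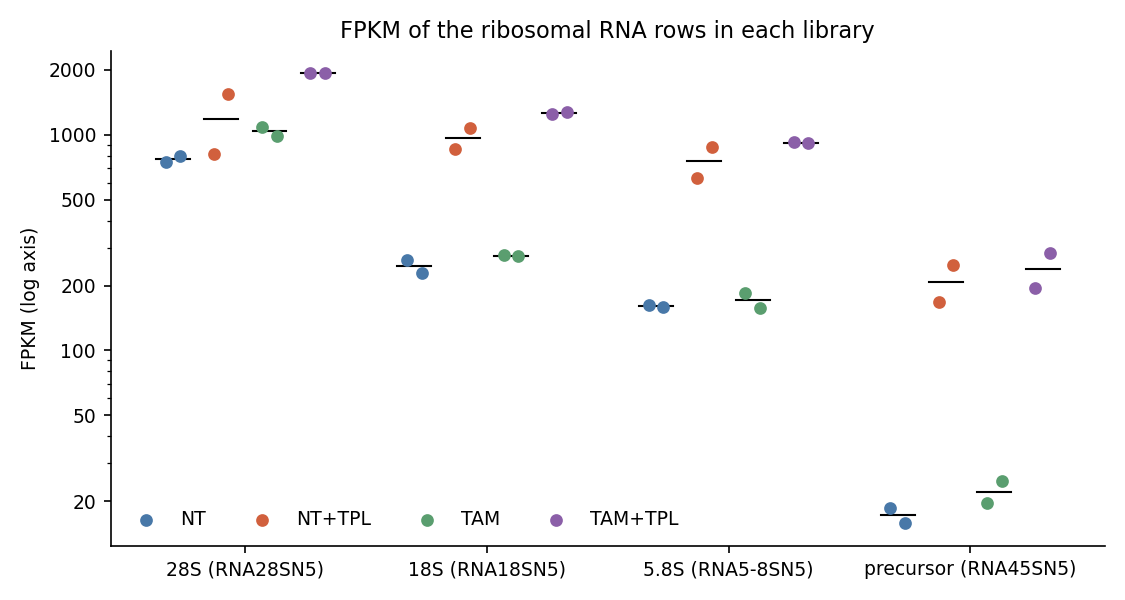
Each point is the FPKM of a library on a log axis, for the 3 mature rRNA rows and the precursor row, and each bar is the mean of the 2 replicates. On FPKM the TPL points lie above the DMSO points of the same cells in every row, and the gap widens from 28S, where NT+TPL replicate 1 at 818 is near NT at 800, to the precursor.

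Reads from the mature parts of the precursor fit both the precursor row and a mature row, and RSEM divides them by a model, so the split between the rows is an estimate. The precursor took 5.49 and 4.51% of the counts of the 4 rows in NT against 27.9 and 25.1% in NT+TPL, and 4.16 and 5.64% in TAM against 17.7 and 23.6% in TAM+TPL. With the precursor added, the summed share was 0.462 and 0.477% in NT against 0.818 and 1.36% in NT+TPL, and 0.638 and 0.597% in TAM against 1.504 and 1.628% in TAM+TPL. The fitted log2 fold change of the sum with TPL was 1.21 in NT cells and 1.29 in TAM cells with the precursor, against 0.85 (SE 0.25) and 1.03 (SE 0.26) without it.

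The 3 mature rRNAs were not listed at equal levels, and their order was the same in all libraries except NT+TPL replicate 1. 28S had the highest FPKM, then 18S, then 5.8S, and in NT+TPL replicate 1 the level of 18S was above that of 28S. The ratio of 18S to 28S FPKM was 0.348 and 0.287 in NT against 1.05 and 0.693 in NT+TPL, and 0.256 and 0.275 in TAM against 0.646 and 0.663 in TAM+TPL. The ratio of 5.8S to 28S lay between 0.159 and 0.216 with DMSO and between 0.473 and 0.772 with TPL. The levels of 18S and 5.8S were nearer to that of 28S in all 4 libraries with TPL, while their own ratio kept to a narrow range, between 0.577 and 0.692 with DMSO and between 0.713 and 0.819 with TPL. The precursor was also higher against the mature rows, at between 0.0180 and 0.0249 of the 28S FPKM with DMSO and between 0.101 and 0.205 with TPL. Its ratio to 18S was 0.0689 to 0.0907 with DMSO and 0.157 to 0.232 with TPL.

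**Figure D3:**
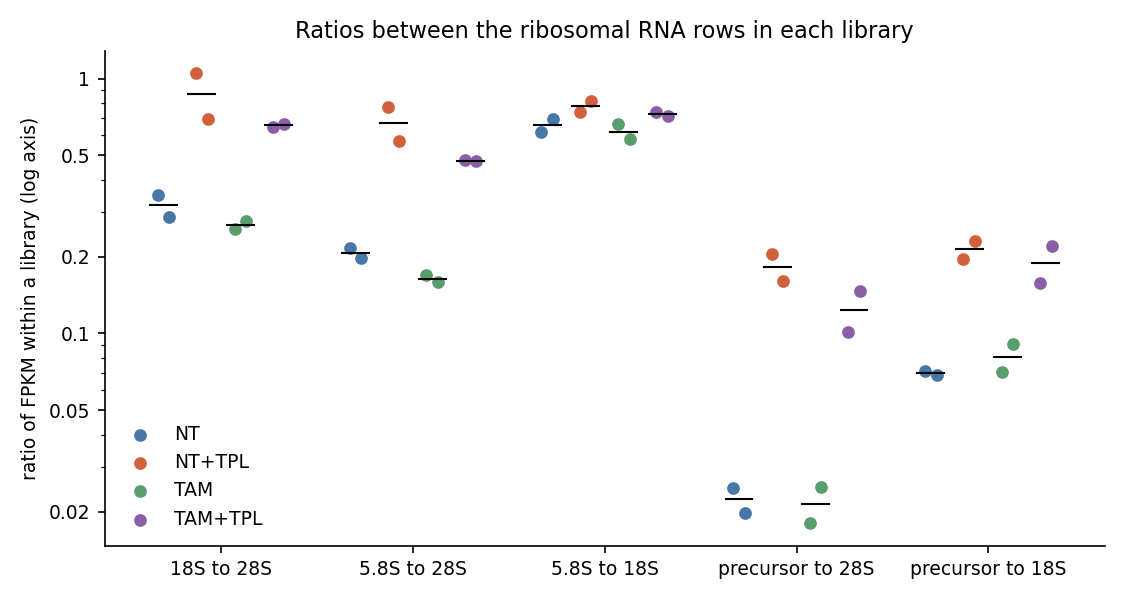
Each point is the ratio of the FPKM of 2 rRNA rows within a library, on a log axis, and each bar is the mean of the 2 replicates. The ratios to 28S are higher with TPL in every library, up to 1.05 for 18S in NT+TPL replicate 1, and the ratio of 5.8S to 18S differs least, between 0.577 and 0.819.

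Across the 8 libraries, log2 CPM of 18S had a Pearson r of 0.997 with 5.8S and of 0.992 with the precursor, and 28S had an r of 0.726 to 0.770 with the other rows. The points fall into TPL and DMSO libraries, so these values describe the groups and are given without a p. Among 8541 genes with a mean of at least 5 FPKM, those most like the summed rRNA share by Pearson r of log2(CPM + 1) over the 8 libraries were ETFRF1 (0.978), ENGASE (0.970), TADA2B (0.969), BRIP1 (0.967) and RNF166 (0.966). The most opposite were WASF1 (-0.985), PIGC (-0.983), EIF2AK1 (-0.979), EHBP1 (-0.978) and NCDN (-0.976). ETFRF1 was 6.74 and 6.75 FPKM in NT against 9.64 and 12.6 in NT+TPL, and 8.33 and 9.30 in TAM against 16.7 and 15.3 in TAM+TPL. It has the order of the groups seen for 28S, with replicate 1 of NT+TPL below replicate 2. WASF1 ran the other way, from 24.4 and 30.4 FPKM in NT to 9.01 and 7.37 in TAM+TPL, with 20 and 8.78 in NT+TPL.

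Between TAM and NT cells the rRNA rows differed less. With DMSO the summed share was 1.32 times as high in TAM as in NT, without overlap. It ran opposite to the summed share of the epithelial markers here too. The fitted log2 difference was 0.41 (SE 0.25). It came mostly from 28S (0.44, SE 0.29), while 18S (0.18, SE 0.16) and 5.8S (0.11, SE 0.21) differed by about their standard error, and the FPKM of 5.8S overlapped between the groups. With GAPDH as the reference in place of edgeR's TMM scaling the difference in the sum became -0.06, and the median of all rows moved from -0.03 to -0.50. With TPL the difference between TAM and NT cells was 0.59 (SE 0.25) for the sum and 0.16 (SE 0.27) for the precursor, whose groups overlapped. The effect of TPL on the sum was 0.18 higher on the log2 scale in TAM than in NT cells, with an SE of 0.36. This value depends on both NT+TPL replicates, being -0.18 without replicate 1 and 0.66 without replicate 2. The effect of TPL on the sum in NT cells was 1.21 without replicate 1 and 0.37 without replicate 2, and the difference between TAM and NT cells with TPL was 0.27 and 1.10.

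Many mRNAs of the genes that make ribosomal RNA fell with TPL. These genes were taken from lists of RNA polymerase I transcription (23 genes), pre-rRNA processing and modification (98 genes) and the nuclear RNA exosome with its poly-A adaptors (25 genes), in all 146 genes in 170 rows, since some genes have a row for each transcript. Of 161 rows tested, TPL lowered 21 in NT and 19 in TAM cells, where a call needed an adjusted p under or at 0.001 with a log2 fold change under -1.2 or over 1.2 (edgeR's quasi-likelihood test, Benjamini-Hochberg adjustment over all rows). This was 13% and 11.8% of the rows of the lists, while 2.71% and 2.04% of all rows fell by the same rule. None of the lists' rows was called higher by edgeR, where 1.22% of all rows were in NT and 0.844% in TAM cells. At an unadjusted p under 0.05, 108 rows were lower and 5 higher in NT cells, and 105 were lower and 4 higher in TAM cells. Over all rows 24.1% were lower and 23.7% higher by this measure in NT cells, and 24% and 21% in TAM cells. DESeq2 called 50 lower and 2 higher in NT cells and 48 lower and 0 higher in TAM cells by the same rule. Over all rows it called more as well, 9.43% lower and 5.64% higher in NT cells and 8.22% and 5.22% in TAM cells. The median log2 fold change of the lists was -0.97 in NT and -0.88 in TAM cells. Leaving out a library leaves a lone replicate in a group. Most such fits kept no row called lower, in the lists or over all rows. The median log2 fold change of the lists was then between -1.01 and -0.9 in NT cells and between -0.86 and -0.82 in TAM cells. Over all rows the medians were between 0.03 and 0.11 in NT cells and between 0.02 and 0.08 in TAM cells.

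The same 16 rows were called lower in both kinds of cells, 76.2% of the calls in NT and 84.2% of those in TAM cells. The comparisons share no library, but both came from the common fit of all 8 libraries. With the spread estimated jointly, the calls in NT and TAM cells are not independent. Of all rows called lower, 244 were common to both, 53.0% of those in NT and 70.7% of those in TAM cells, and whether the shares of the list differ from these was not tested. They include factors of both subunits, among them IMP3, IMP4, UTP15 and UTP18 of the small subunit processome, and RPF2, RRS1, GNL2 and NOC3L, which act on the large subunit. Together the ribosome synthesis rows took 1.75% of the counts in both NT libraries against 1.08 and 1.17% in NT+TPL, and 1.59 and 1.60% in TAM against 1.05 and 1.09% in TAM+TPL. This share was lower with TPL in both kinds of cells, where that of the 3 rRNA rows was higher, and neither overlapped.

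In the transcription list, 2 of 27 rows were called lower in each kind of cells, where 2.71% of all rows were in NT and 2.04% in TAM cells. At an unadjusted p under 0.05, 12 rows were lower in each, and 1 was higher in NT and 0 in TAM cells. Over all rows 24.1% and 24% were lower and 23.7% and 21% higher by this measure. By sign alone, 18 rows were below 0 and 9 above it in NT cells, and 20 and 7 in TAM cells. POLR1B, the second largest subunit of RNA polymerase I, was 19.96 and 22.8 FPKM in NT against 3.18 and 2.95 in NT+TPL, and 19.3 and 18.9 in TAM against 3.60 and 4.56 in TAM+TPL. Its log2 fold change was -2.82 (SE 0.17, edgeR adjusted p = 0.000205) in NT cells and -2.26 (SE 0.17, edgeR adjusted p = 0.000385) in TAM cells. UBTF, the factor UBF that binds along the rDNA, was 30.7 and 31.6 FPKM in NT against 9.08 and 6.94 in NT+TPL, and 39.5 and 31.9 in TAM against 9.72 and 10.9 in TAM+TPL. The groups of both genes did not overlap between TPL and DMSO, but both were named because they were called, so this adds no support. POLR1G, another subunit, did not pass the threshold, with a log2 fold change of -0.97 and -0.81, nor did CAVIN1, which pairs transcripts' release with re-initiation at rDNA, with -0.37 and -0.79. The median over the list was -0.33 in NT and -0.61 in TAM cells.

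The calls were most numerous in the processing list, where 19 of 108 rows were called lower in NT and 17 in TAM cells, against 2.71% and 2.04% of all rows. In each, 98 rows had a log2 fold change under 0, against 46.7% of all rows in NT and 47.9% in TAM cells. The medians were -1.12 and -1.02. RRS1, which takes part in building the large subunit, was 43.2 and 38.1 FPKM in NT against 5.30 and 5.68 in NT+TPL, and 30.9 and 32.0 in TAM against 5.51 and 6.69 in TAM+TPL. RRP1B, a nucleolar protein of the RRP1 family, was 27.6 and 31.4 FPKM in NT and 4.50 and 3.69 in NT+TPL, with a smaller distance in TAM cells, from 26.1 and 24.5 to 6.35 and 6.87. The difference between its TPL effects had an unadjusted p of 0.00323 in edgeR. Neither edgeR nor DESeq2 called any of the 161 rows for this difference, with 6 higher and 3 lower at an unadjusted p under 0.05. The share of all rows was not counted for this difference, so nothing about the list is read from these counts. UTP18 and WDR43, both of the small subunit processome, fell with log2 fold changes of -2.84 and -2.57 in NT cells and -2.35 and -2.57 in TAM cells.

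Of the 26 exosome rows tested, edgeR called 0 in either direction in both kinds of cells. It called 2.71% of all rows lower and 1.22% higher in NT cells, and 2.04% and 0.844% in TAM cells. At an unadjusted p under 0.05, 15 rows were lower in NT and 17 in TAM cells, and 1 was higher in each. Over all rows 24.1% and 24% were lower and 23.7% and 21% higher by this measure. DESeq2 called 7 lower in NT and 5 in TAM cells, where it called 9.43% and 8.22% of all rows lower. The medians were -0.83 in NT and -0.66 in TAM cells. EXOSC10, a nuclease of the nuclear exosome, was 34.1 and 37.6 FPKM in NT against 19.0 and 17.7 in NT+TPL, and 42.6 and 37.9 in TAM against 19.4 and 19.1 in TAM+TPL, and its log2 fold change of -0.97 and -1.11 was under the size needed. MTREX, the helicase that feeds RNA to the exosome, had -1.16 and -0.96, and EXOSC4, a core subunit, -1.53 and -1.49, with edgeR adjusted p of 0.00278 and 0.00338. TENT4B, a poly-A polymerase that tags RNA for the exosome, was listed at 3.09 and 3.25 FPKM in NT against 1.28 and 1.31 in NT+TPL, and 3.23 and 3.14 in TAM against 1.79 and 2.28 in TAM+TPL. These log2 fold changes of -1.31 and -0.71 did not pass the threshold.

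**Figure D4:**
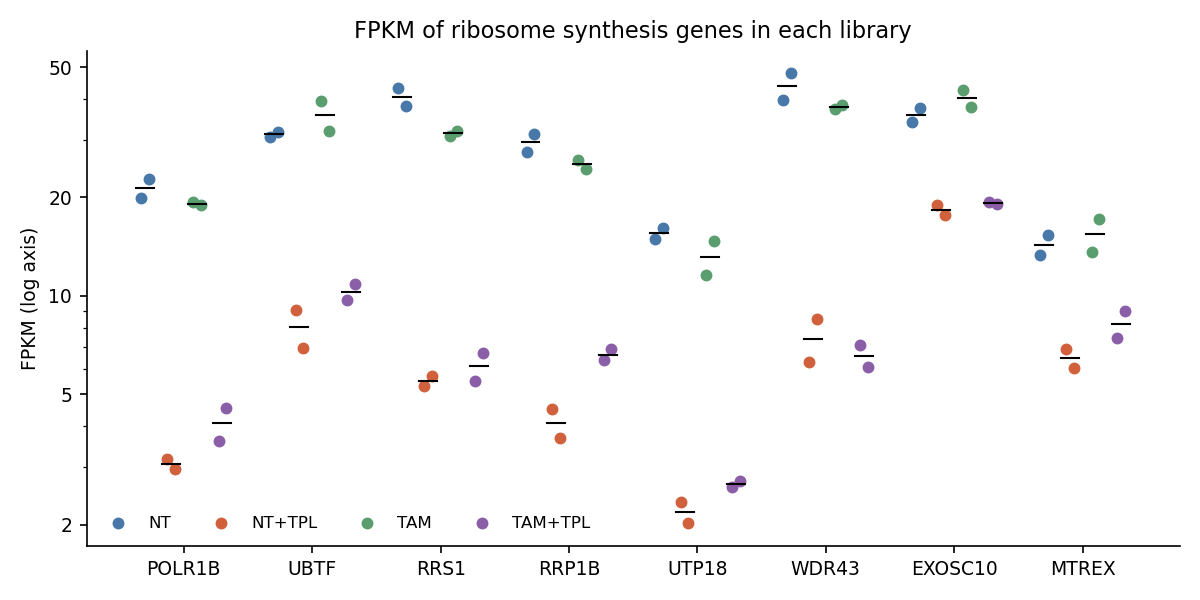
Each point is the FPKM of a library on a log axis for 8 genes that make or degrade rRNA, and each bar is the mean of the 2 replicates. All TPL points lie below the DMSO points of the same gene, for instance 3.18 and 2.95 against 19.96 and 22.8 FPKM for POLR1B in NT cells. EXOSC10 and MTREX did not pass the threshold. The other genes shown were picked because they were called lower on these values, so their separation is no further support.

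Between TAM and NT cells, edgeR called no ribosome synthesis row in either direction, with DMSO or with TPL, where 0.378% and 0.36% of all rows were called higher and 0.271% and 0.236% lower. At an unadjusted p under 0.05, 2 rows were higher and 16 lower in TAM cells with DMSO, and 11 were higher and 13 lower with TPL. Over all rows these were 9.52% higher and 10.4% lower with DMSO, and 9.12% and 12.2% with TPL. DESeq2 called 0 with DMSO, where it called 2.3% of all rows higher and 2.09% lower, and 1 lower with TPL, where it called 1.79% and 2.17%.

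RNAPII was also read at the promoters of these genes, from 1 list of peaks for each condition, so no test was possible. A gene was counted if any of its annotated transcription start sites lay inside a listed peak. Of the 146 genes, 144 were counted in NT against 137 in NT+TPL, and 140 in TAM as well as in TAM+TPL, and 133 in all 4. The share of all genes was not counted, so whether these genes differ from others in this cannot be told. The lists held 11222 peaks for NT against 8653 for NT+TPL, and 11056 for TAM against 8464 for TAM+TPL. POLR1B and RRS1 had a start site in a peak in all 4 conditions, and UBTF in all but NT+TPL. The lists give no height, so less RNAPII within a peak would not be seen. No listed peak lay on the contig that holds the rDNA repeat, but the lists keep only peaks with an annotated start site and were made against RNA polymerase II.

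Other RNAs that lack a poly-A tail were mostly too low to test. Of 297 rows of small nuclear, small nucleolar and other such RNAs, 47 were tested, and edgeR called 0 in either direction with TPL in NT or TAM cells. DESeq2 called 2 higher and 4 lower in NT cells and 1 higher and 2 lower in TAM cells. Over all rows it called 5.64% higher and 9.43% lower in NT cells, and 5.22% and 8.22% in TAM cells. In NT cells 8 rows were higher and 13 lower at an unadjusted p under 0.05, and in TAM cells 4 were higher and 12 lower. Over all rows 23.7% were higher and 24.1% lower by this measure in NT cells, and 21% and 24% in TAM cells. Of the rows tested, 17 had fewer than 10 counts in all 4 libraries with TPL and 1 in all 4 with DMSO. Many thus passed the filter only where they were high, and no direction is read from these counts or from the medians of -1.05 and -0.84. RNU2-1, the U2 RNA of the spliceosome, had the highest log2 fold change of the list in both, 3.75 and 2.92, from 3.18 and 3.98 FPKM in NT to 47.1 and 52.0 in NT+TPL and from 7.72 and 4.64 in TAM to 51.7 and 46.6 in TAM+TPL. The row rests on 4 to 61 reads, did not have 10 counts in every library and missed the threshold, so no direction is read from it. SNORA68, SNORA8 and SNORD10 are small nucleolar RNAs that lie inside introns of other genes. They had log2 fold changes between -1.995 and -4.85 and were not called either. These rows also lacked 10 counts in some library, so no direction is read from them.

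5S rRNA was hardly present. Of 17 rows for 5S genes, 16 carried the same FPKM within a library, between 0.16 and 1.24, because identical genes share their reads. RNA5S9 was listed at 0 in 6 libraries, and none of the 5S rows reached the counts needed for the test.

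Replication-dependent histone mRNAs, which end in a stem-loop in place of a poly-A tail, were also low. Of 62 rows, 29 were tested, of which 13 had fewer than 10 counts in all 4 DMSO libraries and none in all 4 with TPL, while 8 had at least 10 counts in every library. Rows that passed the filter through the TPL libraries alone had to differ, so the median log2 fold change of 1.27 in both kinds of cells and the counts below are no support for a direction of the list. H2BC20P, with 9.22 to 14.99 counts in the DMSO libraries and 138 to 328 in those with TPL, was called higher in NT cells, where 1.22% of all rows were called higher, and no histone row was called in TAM cells, where 0.844% were. At an unadjusted p under 0.05, 16 rows were higher and 0 lower in NT cells, and 13 were higher and 4 lower in TAM cells. Over all rows 23.7% were higher and 24.1% lower by this measure in NT cells, and 21% and 24% in TAM cells. DESeq2 called 5 higher in NT cells and 4 in TAM cells, where it called 5.64% and 5.22% of all rows higher. H2BC20P, a histone H2B pseudogene, was 3.32 and 2.31 FPKM in NT against 76.8 and 32.8 in NT+TPL, and 1.98 and 2.22 in TAM against 38.0 and 36.3 in TAM+TPL. H2BC6 was listed at 0 in both NT libraries and at 51.5 and 40.6 reads in NT+TPL. The pair H2AC18 and H2AC19, near-identical copies with equal values, was 76.3 and 76.2 FPKM in NT against 73.2 and 65.1 in NT+TPL, and 35.8 and 39.0 in TAM against 28.8 and 29.5 in TAM+TPL. Their log2 fold changes with TPL were -0.15 and -0.41, below 0. Histone genes resemble each other, and their reads may be split between copies.

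**Figure D5:**
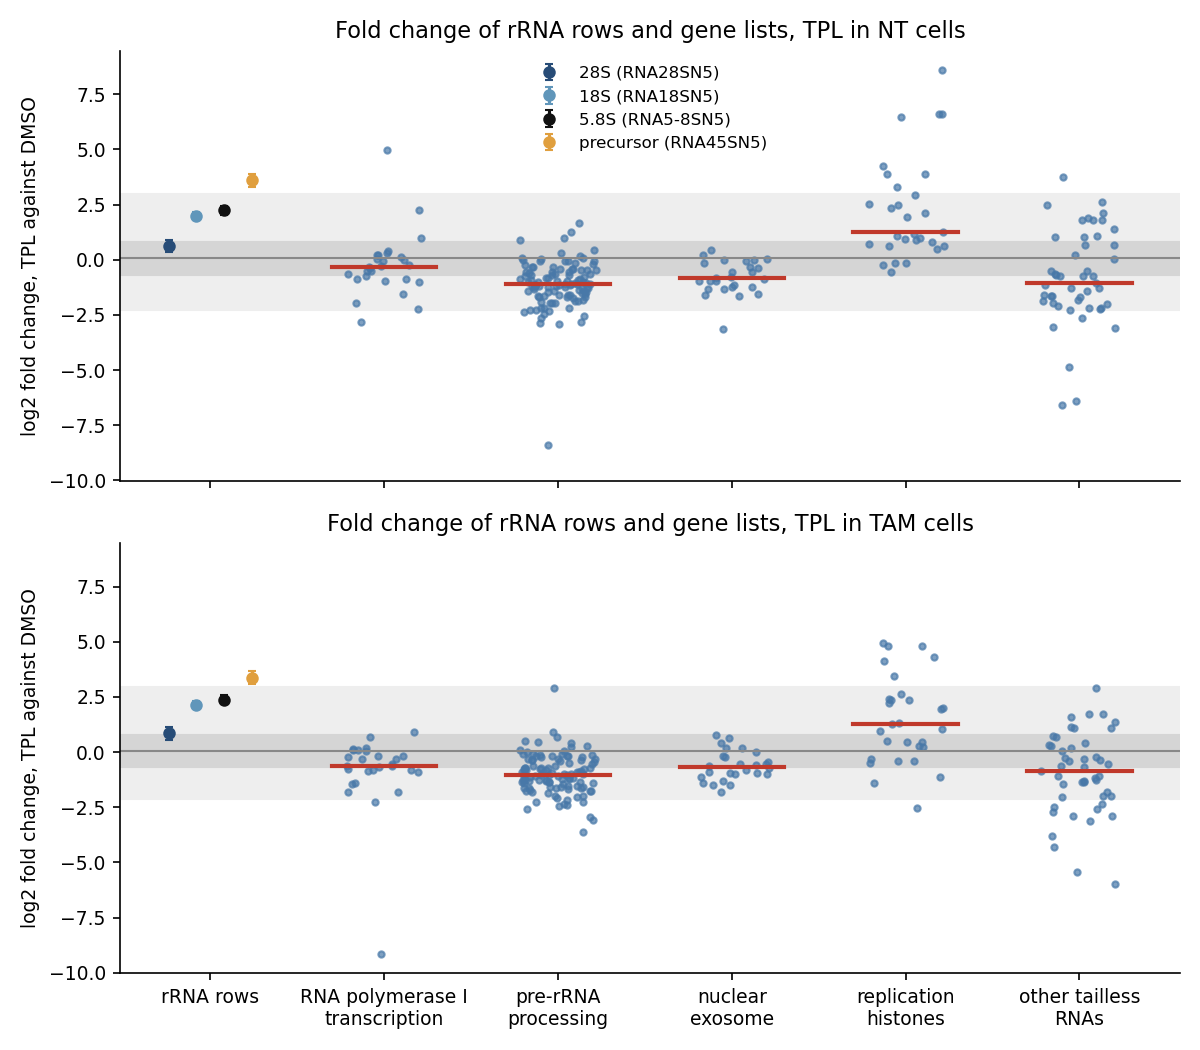
Log2 fold changes of TPL against DMSO from the edgeR fit in NT cells (top) and TAM cells (bottom), for the 4 rRNA rows with their standard errors and for each tested row of 5 lists, with the list's median as a red line. The grey bands hold the central 50% and 90% of all 16948 rows. The rRNA rows lie above the median of all rows, and the median of the processing list lies at -1.12 and -1.02.

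Some epithelial markers were called lower with TPL. TP63, a transcription factor of basal epithelium, fell with TPL, from 13.2 and 23.6 FPKM in NT to 0.64 and 0.28 in NT+TPL and from 24.2 and 23.0 in TAM to 0.89 and 0.58 in TAM+TPL. Of the epithelial marker rows, 2 of 14 were called lower in each kind of cells, where 2.71% of all rows were in NT and 2.04% in TAM cells. At an unadjusted p under 0.05 in edgeR, 8 were lower and 1 higher in NT cells, and 7 and 1 in TAM cells. Over all rows 24.1% were lower and 23.7% higher by this measure in NT cells, and 24% and 21% in TAM cells. Of the markers of other cell types, 4 were tested, 2 of them with fewer than 10 counts in all 4 DMSO libraries. edgeR called 0, and DESeq2 called 1 higher in each kind of cells, where it called 5.64% of all rows higher in NT and 5.22% in TAM cells. At an unadjusted p under 0.05, 1 of them was higher in NT and 2 in TAM cells. The liver marker ALB was 0 and 0.11 FPKM in NT against 1.95 and 2.50 in NT+TPL, and 0 and 0.11 in TAM against 3.29 and 2.21 in TAM+TPL. The summed level of the 6 markers found was 0.00293 and 0.00315% of the counts in NT against 0.00314 and 0.00554% in NT+TPL, and 0.000798 and 0.000853% in TAM against 0.00198 and 0.00247% in TAM+TPL, with an overlap in NT cells only. The islet marker INS had no row, and COL3A1 and CD3E were at 0 in 5 libraries each. The part of such cells in the rRNA rows was not tested. The part of RNA quality and of the efficiency of the poly-A enrichment in the rRNA rows was not tested.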

How the data were processed

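RNA-Seq was analysed in 8 libraries of MCF10A-ErSrc cells and RNAPII peaks in 4 lists, out of 18 samples. The authors enriched poly-A RNA with oligo(dT), sequenced it on an Illumina instrument, aligned the reads to reference transcripts with Bowtie2 and estimated expected counts and FPKM per gene with RSEM, which are the deposited units and are not rescaled further. The FPKM deposited by the authors imply an effective length of the row length minus 35.5 to 37.5 bases. Both replicates were deposited singly. The peak lists were made by the authors from reads aligned to hg19 with a MACS caller over input, and kept peaks with a transcription start site. Each holds starts and ends only, and the peak names refer to replicate 1.

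A row with no read in a library is absent from its file and counted as 0. Of 23604 rows, 21077 got their symbol through the gene ID and 2405 through a RefSeq accession, which left 122 unnamed. Expected counts were rounded and fitted in R 4.3.3 with edgeR 4.0.16 (scaling by TMM with factors from 0.975 to 1.03, its filter on low counts, quasi-likelihood test), with the 4 groups fitted together over 16948 rows. P-values were adjusted by Benjamini and Hochberg. The study's thresholds for a call were kept, an adjusted p no higher than 0.001 with a log2 fold change beyond 1.2 in either direction. The SE of a fold change is its size divided by the square root of the F value. Shares have 95% Wilson intervals. Scripts were tested on simulated data. Alternatives were DESeq2 1.42.0, limma 3.58.1 on log2(FPKM + 1) and log2(FPKM + 0.1), other scalings and filters, an adjusted p of 0.05, a replicate block and leaving out each library.

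The members and lists were chosen with earlier results of these data known. Genes named are the rRNA rows, up to 4 genes of each list (those called, by size of fold change in any contrast, then by unadjusted p with a mean of at least 1 FPKM), and the 5 most and 5 least like the summed rRNA CPM. Sequences were read from GRCh37. The 5.8S row was placed with BLAST 2.17.0 using the GENCODE release lifted to build 37. Distances to the other rows came from a RefSeq table on GRCh38, in which 5.8S starts 1 base earlier. The contig holds another match at a place without room for a whole precursor, not used here. Summaries used Python 3.11.15, numpy 2.4.6, pandas 2.3.3, scipy 1.17.1 and matplotlib 3.10.9. The ChIP signal was not used here.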

Additional observations from a re-analysis of the deposited data

Results flagged for a closer look

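LAMB3, a laminin chain of the basement membrane and the only gene named here with a difference between the TPL effects at an adjusted p under 0.05 (edgeR, adjusted p = 0.0492), was among the epithelial markers. It was 266 and 286 FPKM in NT against 42.5 and 27.0 in NT+TPL, and 488 and 396 in TAM against 306 and 299 in TAM+TPL. Its log2 fold change with TPL was -3.0 in NT cells (edgeR adjusted p = 0.000322) and -0.59 in TAM cells (edgeR adjusted p = 0.0638), a difference of 2.41 (SE 0.29), with all TPL libraries below the DMSO libraries of the same cells in both.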

How the results depend on the processing

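With 2 libraries a group the limit is the spread between replicates, and counts cover it only in part. For the summed rRNA rows, the log2 difference with TPL was 0.85 in NT and 1.03 in TAM cells. The alternatives that moved it by more than the replicate SD were the precursor row added (1.21 in NT cells), GAPDH as the reference (0.50 in NT cells), and limma on log2(FPKM + 1) (1.27 and 1.47) and on log2(FPKM + 0.1) (1.27 and 1.47), where short rows weigh more. GAPDH turned the difference between TAM and NT cells with DMSO to -0.062 for the sum, -0.36 for 5.8S, -0.28 for 18S, -0.037 for 28S and -0.081 for the precursor, and for the precursor turned that with TPL to -0.068 and the difference between the TPL effects to 0.013. The cause was not tested.

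Leaving out each library gave 0.37 to 1.21 for the sum with TPL in NT cells, 0.96 to 1.08 in TAM cells, 0.35 to 0.47 for TAM against NT cells with DMSO, 0.27 to 1.10 with TPL, and -0.18 to 0.66 for the difference between the TPL effects. For single rows whose sign turned, it gave -0.006 to 0.21 for 5.8S between TAM and NT cells with DMSO, and -0.091 to 0.54 for the precursor with TPL. For the difference between the TPL effects it gave -0.11 to 0.43 for 5.8S, -0.008 to 0.38 for 18S, -0.18 to 0.80 for 28S and -0.50 to 0.13 for the precursor. COL1A1, a collagen of fibroblasts, went from -0.78 without NT+TPL replicate 1 to 0.65 with TPL in NT cells.

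The ribosome synthesis rows called lower with TPL were 21 in NT and 19 in TAM cells. They were 50 and 48 with DESeq2, 37 and 33 with at least 10 counts in every library, 52 and 49 at an adjusted p of 0.05, and 0 and 0 with the replicate block. The calls over all rows grew too, from 2.71 and 2.04% to 9.43 and 8.22%, 7.98 and 6.97%, and 11.3 and 10.1% under the first 3 of these. Rows called higher in NT cells were 2 with DESeq2 and 2 at an adjusted p of 0.05. DESeq2 called 5.64% of all rows higher there, and the share at an adjusted p of 0.05 was not counted. For TAM against NT cells with TPL, 1 was called lower with DESeq2, with at least 10 counts and at an adjusted p of 0.05. Without a library, a lone replicate being assumed to vary like the other groups, 0 to 3 were called lower in NT cells and 0 to 22 in TAM cells. With the block no row of all 16948 was called, while 108 and 105 of the list stayed lower at an unadjusted p under 0.05. The block and the fits without a library have fewer residual degrees of freedom. Why their calls differ from those of the main fit was not tested.

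The other RNAs without a tail had 0 calls. DESeq2 called 4 lower and 2 higher in NT cells and 2 and 1 in TAM cells. Over all rows it called 9.43% lower and 5.64% higher in NT cells, and 8.22% and 5.22% in TAM cells. An adjusted p of 0.05 gave 9 and 6, and 6 and 3, where 11.3% of all rows were called lower in NT and 10.1% in TAM cells. Histone rows called higher were 1 in NT and 0 in TAM cells. They were 5 and 4 with DESeq2 and 10 and 9 at an adjusted p of 0.05. With the block there were 0 in NT cells, and in TAM cells 1 without the filter and 1 with at least 10 counts. The share of all rows called higher at an adjusted p of 0.05 was not counted. Of the 29 histone rows tested, 13 had fewer than 10 counts in all 4 DMSO libraries, so no direction is read from these counts. The alternatives for both lists, and those for the difference between the TPL effects and for single genes, were chosen after seeing the data.

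Replicate numbers did not pair the libraries (correlations of deviations from -0.135 to 0.05), and the sum changed to 0.82 and 1.02 with the replicate block.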

Other observations

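Rows of the MTRNR2-like genes, nuclear copies of the mitochondrial 16S rRNA gene, were looked at after their values had been seen, because no mitochondrial rRNA has a row of its own in these files. The 10 rows took 0.867 and 0.847% of the counts in NT against 1.48 and 1.94% in NT+TPL, and 0.757 and 0.797% in TAM against 1.11 and 0.934% in TAM+TPL. All 9 rows tested had a log2 fold change above 0 with TPL in both kinds of cells, with medians of 1.11 and 0.42, where 52.9% and 51.8% of all rows were above 0 and the medians of all rows were 0.09 and 0.05. edgeR called 0 of them, DESeq2 called 1 higher in NT cells, and 8 in NT and 1 in TAM cells were higher at an unadjusted p under 0.05, as were 23.7% and 21% of all rows. Reads of mitochondrial 16S rRNA and of these nuclear copies cannot be told apart here. Reads may also be split between the copies, so the 9 rows are not separate observations. Their share was larger in NT+TPL than in TAM+TPL in every library, while that of the 3 cytoplasmic rRNA rows was larger in TAM+TPL.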
